A study of Mus musculus with 3 samples.

Results

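Of 2800 endothelial cells (ECs) of the mouse ventricle, 638 (22.8%) held at least 3 counted RNA molecules of 5 interferon-stimulated genes. These made up 9.23% of 6915 cells in all. They were chosen by measured counts. A cell with at least 200 detected genes was taken as an EC when Pecam1, Cdh5, Kdr and Egfl7 together gave at least 3 unique molecular identifiers (UMIs, each standing for 1 captured RNA molecule), more than 2 times the UMIs of each of 3 sets that mark fibroblasts (FBs: Col1a1, Col1a2, Pdgfra), blood cells (BCs: Ptprc, Tyrobp, C1qa) and mural cells (Myh11, Rgs5, Vtn). An EC entered the interferon gate when Ifit1, Ifit3, Isg15, Rsad2 and Usp18 together gave at least 3 UMIs. Differences between gated and other ECs therefore follow in part from the choice, and they are given below as descriptions without a test.

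The cells were ventricular non-cardiomyocytes of wild-type male C57BL/6J JCL mice, freed with collagenase and DNase, enriched on Percoll and fixed with CellCover, and their RNA was counted with the 10x Chromium Single Cell 3′ v2 kit. One library came from the healthy phase and was labelled Control. The sources used here do not give how many hearts entered a library. The others came from hearts labelled TAC, in which the aortic arch had been constricted at 8 weeks of age, 2 weeks (adaptive hypertrophy) or 12 weeks (heart failure) before sampling. Each phase was 1 library, so phase and library cannot be told apart. Below, 3 values in a row stand for 0, 2 and 12 weeks, and every interval is a 95% interval of counting error only. Depth differed between the libraries, with medians of 2337, 1633 and 1415.5 UMIs per EC.

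Interferons are secreted proteins that warn cells of infection or misplaced nucleic acid. Type I interferons bind IFNAR1 and IFNAR2, and the kinases JAK1 and TYK2 pass the signal to transcription factors that bind interferon-stimulated response elements (ISRE). Interferon gamma has its own receptor and acts at GAS elements. In ECs both are known to raise antiviral proteins, GTPases, antigen presentation and chemokines. Of the gate genes, Isg15 encodes a ubiquitin-like modifier, Usp18 removes it and dampens the type I receptor, Ifit1 and Ifit3 belong to a family that binds viral RNA, and Rsad2 encodes viperin, an antiviral enzyme.

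Promoter stretches of gate genes and of genes set apart in gated ECs are printed because the ISRE is the element through which type I interferon acts. The gate genes were chosen as interferon-stimulated genes, so letters in their promoters describe that choice and are no check on the cells. The letters searched were GAAA, any 2 bases and GAAA for the ISRE, and TTC, any 3 bases and GAA for GAS, on both strands of the window from 250 bases before to 50 bases after each RefSeq start (GRCm38.p6). Each stretch is written 5′ to 3′ on the strand of the gene, with ISRE letters in capitals. Matches that overlap, as the 3 in Isg15, run together.
Isg15: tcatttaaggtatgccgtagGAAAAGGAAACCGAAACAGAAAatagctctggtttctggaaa
Rsad2: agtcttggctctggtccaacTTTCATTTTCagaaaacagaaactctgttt
Ifit1: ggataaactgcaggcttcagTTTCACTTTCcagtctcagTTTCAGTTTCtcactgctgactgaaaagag
Ifit3: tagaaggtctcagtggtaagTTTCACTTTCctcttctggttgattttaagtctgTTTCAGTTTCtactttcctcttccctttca
Cxcl10: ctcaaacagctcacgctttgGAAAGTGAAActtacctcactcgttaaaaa
Tgtp1: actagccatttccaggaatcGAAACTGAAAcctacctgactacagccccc
Igtp: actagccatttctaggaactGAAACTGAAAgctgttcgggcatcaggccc
Phf11b: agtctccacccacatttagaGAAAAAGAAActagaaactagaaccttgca
Mmrn1: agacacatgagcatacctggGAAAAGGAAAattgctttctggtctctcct
The stretches lie upstream of the start of Isg15 (chr4:156200855-156200916, minus strand), Rsad2 (chr12:26456543-26456592, minus strand), Ifit1 (chr19:34640765-34640833, plus strand), Ifit3 (chr19:34583353-34583436, plus strand), Cxcl10 (chr5:92349073-92349122, minus strand), Tgtp1 (chr11:48992294-48992343, minus strand), Igtp (chr11:58199502-58199551, plus strand), Phf11b (chr14:59341351-59341400, minus strand) and Mmrn1 (chr6:60944221-60944270, plus strand). Ifit3b carried the same 84 letters as Ifit3, and reads of such near-identical genes can be split in counting, so the separate values of both are uncertain. Mmrn1, the gene lowest in gated ECs, is shown because it held ISRE letters as well. The starts meant here are those of RefSeq. In the GENCODE annotation, which gave the gene coordinates below, 2 stretches lie inside the gene. These are the stretches of Tgtp1 (chr11:48985327-48994172) and Mmrn1 (chr6:60924976-60989378).

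All 4 gate genes with a promoter entry held ISRE letters, against 3.99% of 27025 genes. Usp18 had no entry. Among the 20 genes named below as highest in gated ECs, 15 had an entry and 5 held the letters, and among the 10 lowest it was 1 of 8. The letters were found in 13 of 39 antiviral effectors (33.3%), 9 of 10 guanylate-binding (GBP) and immunity-related (IRG) GTPases, 5 of 16 MHC class I genes and 0 of 8 pan-endothelial genes. GAS letters stood in 9.55% of all genes, in 6 of 10 GTPases and in none of the 4 gate genes. A match describes letters and no binding. Isg15 lies on chromosome 4 (156199424 to 156200818, minus strand), Rsad2 on chromosome 12 (26442746 to 26456452, minus strand), Usp18 on chromosome 6 (121245906 to 121270917, plus strand), and Ifit3 (34583531 to 34588731) and Ifit1 (34640871 to 34650009) on the plus strand of chromosome 19, all in GRCm38.

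Gate UMIs formed a graded distribution. There were 1208 ECs with 0 gate UMIs, 642 with 1, 312 with 2 just outside the threshold, 188 with 3 just inside it, 116 with 4 and 91 with 5. Gated ECs had a median of 5 and a maximum of 49. The class is defined as a range of a score, and whether it holds a separate cell type was not tested. Isg15 made up 50.9% of the gate UMIs in gated ECs, Rsad2 27.6%, Ifit1 11.6%, Ifit3 5.78% and Usp18 4.10%. A single gate gene was detected in 147 gated ECs (23%) and all 5 in 22 (3.45%), while 311 (48.7%) held a UMI of Ifit1 or Ifit3.

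Over all ECs, gated or not, Isg15 was at 399 (377 to 422), 389.8 (368 to 412) and 257 (211 to 311) counts per 1000000 UMIs (CPM). The heart failure library was lowest for Isg15, and its interval overlapped neither of the others. Rsad2 ran the other way, at 213 (197 to 230.1), 238 (221 to 255) and 338 (285 to 399) CPM, with the heart failure library highest and again apart. There were 0.534 (0.486 to 0.587), 0.609 (0.556 to 0.668) and 1.31 (1.02 to 1.70) Rsad2 UMIs per Isg15 UMI. Ifit1 was at 78.4 (68.9 to 88.9), 81.7 (72.0 to 92.3) and 54.8 (34.8 to 82.3) CPM and Usp18 at 37.6 (31.1 to 45.1), 33.6 (27.5 to 40.6) and 23.8 (11.4 to 43.8) CPM, with intervals that overlapped between all libraries. Ifit3 was at 30.3 (24.5 to 37.0), 52.9 (45.2 to 61.5) and 47.7 (29.1 to 73.6) CPM, where the healthy library lay below the 2-week library.

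When the gate was set on a random 50% of each cell's UMIs and the genes were read in the rest, 309 ECs passed, and all 5 genes stayed above the other ECs. The ratios were 5.96 for Ifit1, 5.56 for Ifit3, 3.63 for Usp18, 3.51 for Isg15 and 2.54 for Rsad2, the lowest. The genes read were those that chose the cells. Any difference between cells in these genes beyond counting error, whatever its source, would raise the ratios. The ratios therefore describe such a difference, and its source was not tested.

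The label of these cells was checked on interferon genes outside the gate, as observed UMIs over those expected from the other ECs of the same library at equal total UMIs. The sum of 44 antiviral effectors, those with under 1000 UMIs over all ECs, was at 1.68 (1.62 to 1.74), 1.61 (1.55 to 1.67) and 1.52 (1.33 to 1.74) times expectation. The limit to 44 genes was chosen after the values were seen, and all 51 effectors gave 1.24, 1.25 and 1.15. Gated ECs with an Ifit1 or Ifit3 UMI stood at 2.09, 2.00 and 2.32 times expectation for the 44 genes, above gated ECs without one at 1.34, 1.17 and 0.803. The 44 genes include Ifit3b, whose reads can be split with those of Ifit3, so part of this follows from the choice. These groups were not matched for gate UMIs either. Over all libraries the ratio was 1.23 with exactly 3 gate UMIs and 2.46 with 10 or more.

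The label did not hold for every cell in the gate. In 53 gated ECs (8.31%) Rsad2 was the only gate gene detected, and these were 17 of 299, 24 of 304 and 12 of 35 gated ECs. Their ratio was 0.963 (0.837 to 1.10) for the 44 effectors and 0.939 (0.773 to 1.13) for the GTPases over all libraries, level with other ECs, and at 12 weeks the 44 effectors were at 0.593 (0.403 to 0.842). The 92 gated ECs (14.4%) with Isg15 alone had 1.24 (1.14 to 1.34) and 1.83 (1.68 to 2.00). ECs with exactly 3 gate UMIs, just inside the threshold, had 1.23 and 1.61, and those with exactly 2, just outside it, 1.15 and 1.25. The ECs with exactly 2 are among the other ECs that set the expectation, which draws their ratio towards 1. At 12 weeks the order turned, with overlapping intervals. The values were 0.914 (0.683 to 1.20) and 1.27 (0.872 to 1.78) in 14 ECs just inside. They were 1.07 (0.856 to 1.32) and 1.44 (1.08 to 1.88) in 26 just outside.

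**Figure D1:**
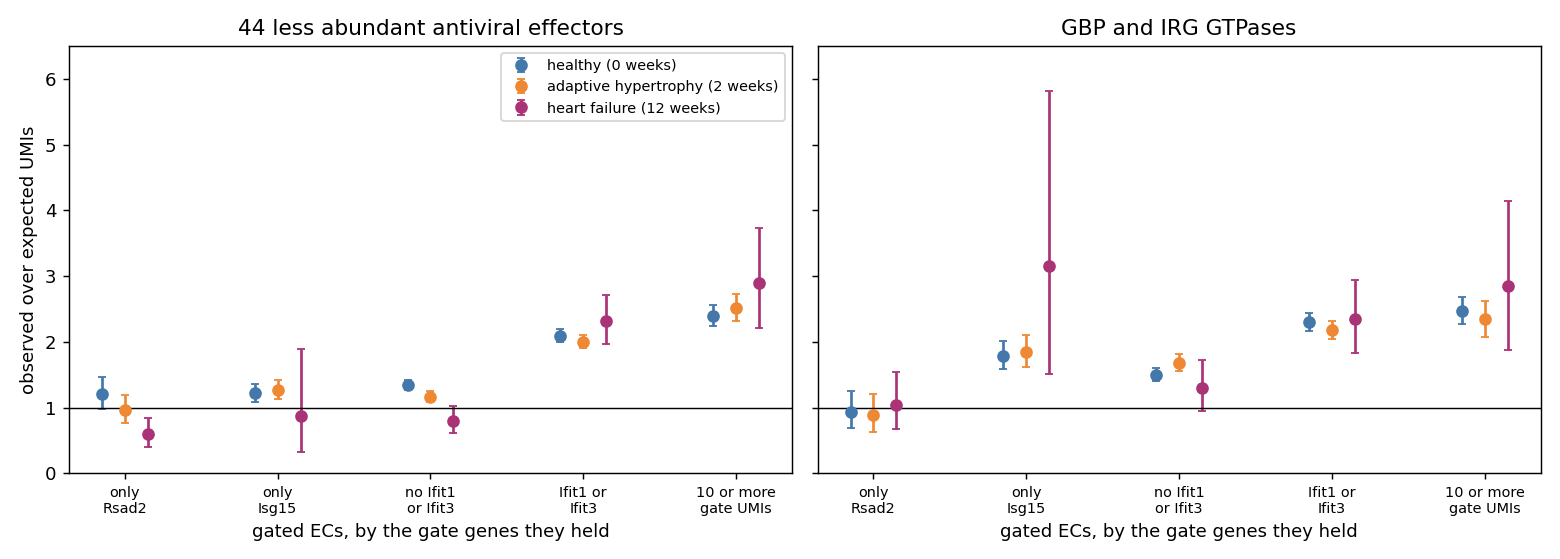
Observed over expected UMIs (y axis, linear, from 0) of the 44 less abundant antiviral effectors (left) and the GBP and IRG GTPases (right) in gated ECs grouped by the gate genes they held (x axis). Points are libraries, bars are 95% Poisson intervals and the line at 1 is the level of the other ECs. The intervals of the cells with Rsad2 alone reach or lie below 1, and the cells with Ifit1 or Ifit3 lie at 2.00 or above.

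Other interferon genes also stood higher with more gate UMIs below the threshold. In ECs with 0, 1, 2, 3 to 4, 5 to 9 and 10 or more gate UMIs the GTPases summed to 750.4, 883, 976, 1261, 1564 and 2072 CPM in the healthy library. The same bins held 754, 891, 1111, 1475, 1736 and 2003 CPM at 2 weeks and 662, 933, 1140.2, 1054, 1606 and 2256 CPM at 12 weeks. Each step went up except the one onto 3 to 4 gate UMIs at 12 weeks, a bin of 18 ECs. The 44 effectors stood at 1206, 1495 and 1594 CPM with 0 gate UMIs and at 3166, 4152 and 5013 CPM with 10 or more, in 51, 35 and 5 ECs.

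**Figure D2:**
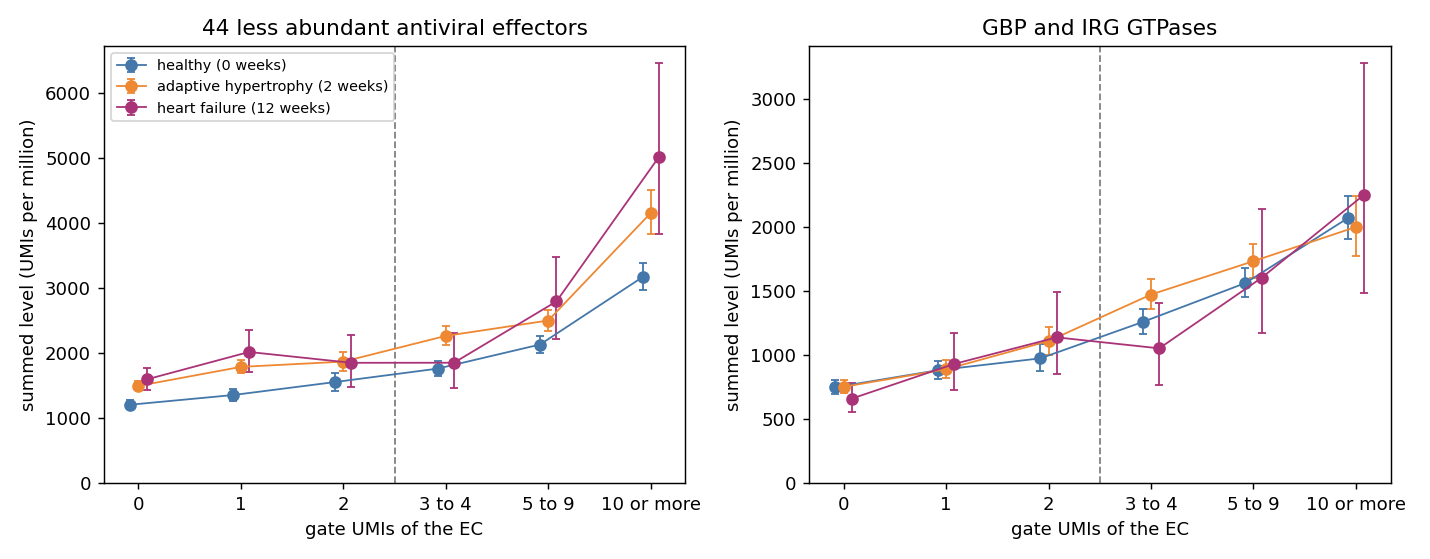
Summed level in CPM (y axes, from 0) of the 44 less abundant antiviral effectors (left) and the GTPases (right) in ECs by their number of gate UMIs (x axis). Points are libraries, bars are 95% Poisson intervals, and the dashed line is the threshold of 3. Each library is higher in the last bin than in the first, and the heart failure library steps down once onto the bin of 3 to 4 for the GTPases and once between 1 and 2 for the effectors.

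The gate held 299 of 1015 ECs in the healthy heart (29.5%, 26.7 to 32.4, exact Clopper-Pearson), 304 of 1541 in adaptive hypertrophy (19.7%, 17.8 to 21.8) and 35 of 244 in heart failure (14.3%, 10.2 to 19.4). Relative to the healthy share these were 0.670 (0.583 to 0.769) and 0.487 (0.353 to 0.671) times. The order was that of the depth of the ECs. When each EC with at least 1000 UMIs was thinned to 1000, the expected shares were 9.25% (7.62 to 11.2), 8.70% (7.24 to 10.4) and 6.45% (3.69 to 11.1) (Wilson intervals), with 0, 317 and 66 shallower ECs left out. The ratios to the healthy share were then 0.940 (0.721 to 1.22) and 0.698 (0.386 to 1.26), so a difference between phases was not detectable at this depth. Thinning to 500 UMIs gave 3.15%, 2.90% and 3.34% and to 1500 UMIs 15.3%, 14.1% and 14.5%. Summed over all ECs, the 5 gate genes were at 759, 795 and 722 CPM.

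Within ranges of depth the shares were 20.1%, 15% and 9.82% for ECs with 1000 to under 2000 UMIs, 22.8%, 24.7% and 24.4% from there to under 3000 and 34.8%, 34.0% and 35% from there to under 5000. The libraries lay together from 2000 to under 5000 UMIs and kept the order of the unthinned shares in the range from 1000 to under 2000. Below 1000 UMIs the order turned, with no healthy EC, 14 of 317 ECs (4.42%) at 2 weeks and 6 of 62 (9.68%) at 12 weeks. From 5000 UMIs the shares were 60.1%, 68.5% and 20.0%, the last being 1 of 5 ECs. Gated ECs were the deeper cells of each library, with medians of 3212, 2503.5 and 2188 UMIs against 2170.5, 1508 and 1353 in other ECs.

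**Figure D3:**
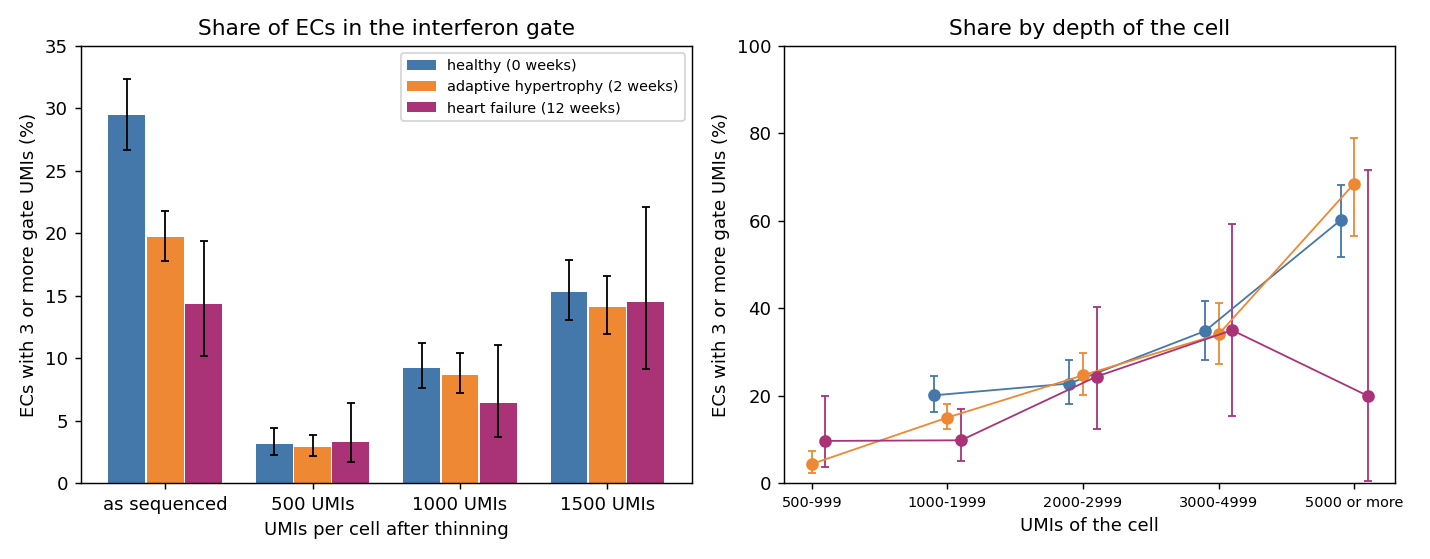
Share of ECs in the interferon gate in percent (y axes, from 0), as sequenced and after thinning (left, bars by library with 95% intervals) and by UMIs per cell (right, points by library with 95% intervals). The left group steps down from 29.5% to 14.3% as sequenced, while intervals overlap in each thinned group, and the libraries lie together between 2000 and 5000 UMIs.

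Other cell classes entered the same gate at shares of 2.76%, 5.15% and 6.17% for FBs, 1.87%, 5.62% and 8.33% for BCs and 18.8%, 18.7% and 10.3% for mural cells. Thinned to 1000 UMIs they were 0.637%, 4.81% and 1.49% for FBs, 0.434%, 2.22% and 6.28% for BCs, 2.29%, 2.35% and 0.335% for mural cells and 9.25%, 8.70% and 6.45% for ECs. The thinned interval of ECs was apart from those of the other classes in the healthy library. At 2 weeks the interval of ECs (7.24 to 10.4) lay within that of FBs (1.79 to 12.3). It overlapped that of mural cells (0.524 to 9.91) and was apart from that of BCs (0.750 to 6.40). At 12 weeks the interval of ECs (3.69 to 11.1) lay within those of BCs (2.37 to 15.6) and mural cells (0.00832 to 11.9). It overlapped that of FBs (0.435 to 4.96) there. The median depths of FBs, BCs and mural cells in the healthy library were 3076.5, 2675 and 3036 UMIs, above that of the ECs. Rsad2 in the healthy library was at 213 (197 to 230.1) CPM in ECs, 53.8 (43.0 to 66.4) in mural cells, 11.5 (7.84 to 16.4) in BCs and 3.07 (1.58 to 5.36) in FBs, with no overlap between these intervals. Isg15 was at 399 CPM in healthy ECs, 305 in mural cells, 53.6 in BCs and 48.5 in FBs. Ifit3 was at 30.3 (24.5 to 37.0) CPM in healthy ECs and 29.4 (24.3 to 35.3) in FBs, not apart.

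Against the other ECs, 34 of 8558 genes outside the gate with at least 50 UMIs over all ECs were at least 2-fold higher in gated ECs (0.397%) and 98 at least 2-fold lower (1.15%). Set against other ECs of like depth, by 5 strata of UMIs per cell, it was 50 (0.584%) and 153 (1.79%). Without the healthy library 82 were higher and 254 lower, and without the adaptive hypertrophy library 72 and 210. The median log2 ratio of all genes was -0.04. The gate used this contrast, so these percentages stand as the background of the counts below and nothing is read from the counts.

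The 20 highest genes were picked among those with a ratio over 1 in each library with at least 1 expected UMI, so their direction in single libraries follows from the choice. Oasl1, a relative of the oligoadenylate synthetases, was at 15.8, 22.4 and 24.0 CPM in gated ECs and 2.14, 5.86 and 5.95 CPM in other ECs, a ratio of 4.94 (3.57 to 6.65). Ifit2, which binds viral RNA, was at 48.0, 73.5 and 108 CPM in gated ECs and 17.7, 15.8 and 29.8 CPM in other ECs, a ratio of 3.50 (2.94 to 4.14), and its neighbour Ifit3b had 4.12 (3.36 to 5.01). Oasl1 rested on 43 UMIs in gated ECs and Ifit2 on 139. Rtp4, an interferon-induced inhibitor of viral replication, was at 147, 187 and 156 CPM in gated ECs and 63.7, 77.5 and 83.3 CPM in other ECs, a ratio of 2.34 (2.11 to 2.59). The ratio was 2.69 for Ifi44, 2.56 for Oasl2, 2.45 for Ifi204, 2.35 for Mnda and 2.19 for Phf11b. Without the 2-week library Mnda was at 1.49 and Phf11b at 1.68. Oasl1 and Oasl2 are similar genes, as are Ifi204 and Mnda, so reads may be split within either pair. The other highest genes are described with their lists below, apart from Zbtb17 (2.51), Hspb7 (2.43), Cbwd1 (2.26), Fbxw9 (2.26) and the cardiomyocyte myosin Myh6 (2.18). These 5 rested on 30 to 40 UMIs each in gated ECs, as did Phf11b on 32 and Tgtp1 on 36. Without the healthy library Zbtb17 was at 1.57, Hspb7 at 1.81 and Myh6 at 1.35.

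**Figure D4:**
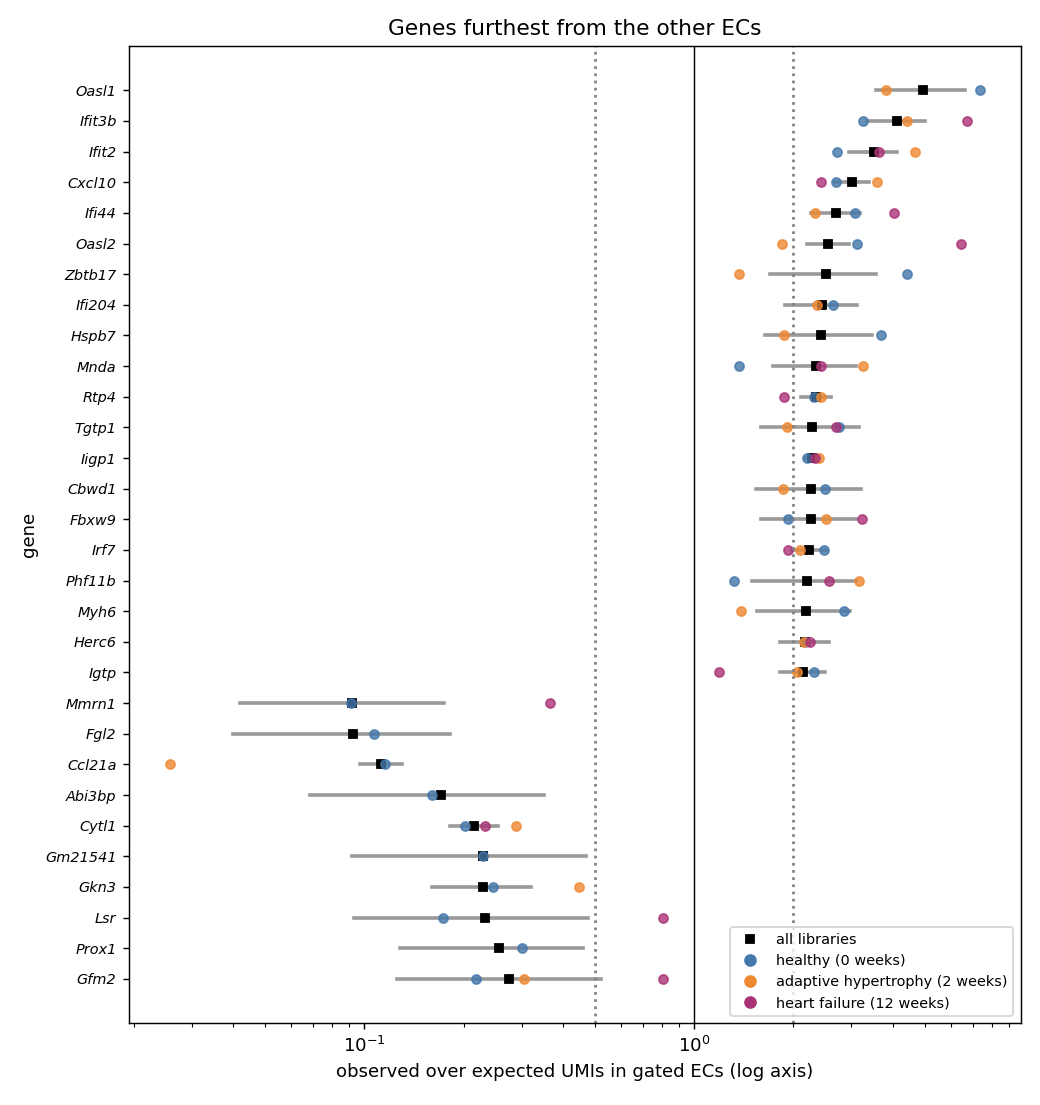
Observed over expected UMIs in gated ECs (x axis, log scale) for the 20 highest and 10 lowest genes outside the gate (y axis). Squares are all libraries with 95% Poisson intervals as grey lines, coloured points are single libraries with at least 1 expected and 1 observed UMI, and dotted lines mark 2-fold. Oasl1 leads at 4.94 and Mmrn1 is lowest at 0.0919.

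No EC held a UMI of any of 21 interferon genes, which for each gene allows up to 3 UMIs over the ECs. All kept cells together held 6, of which 4 were Ifng and 1 Ifnb1 in BCs and 1 Ifnz in an FB. Of 8 receptors and Janus kinases none was past 2-fold, and their median log2 ratio was -0.01. The type I receptor chains Ifnar1 and Ifnar2 had ratios of 0.830 and 0.951, Ifngr1 of the interferon gamma receptor 0.900, Jak1 1.16 and Jak2 1.5.

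Interferon transcription factors had a median log2 ratio of 0.64, and none was 2-fold lower. Irf7, which amplifies type I interferon production, was at 92.9, 164 and 119.8 CPM in gated ECs and 37.5, 78.4 and 62.5 CPM in other ECs, a ratio of 2.23. Irf1 was at 530.1, 434 and 347 CPM in gated ECs and 414, 276 and 223 CPM in other ECs, a ratio of 1.38, higher in gated ECs of each library. Irf2 and Stat3 had ratios of 1.16 and 1.16.

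None of 10 nucleic acid sensors and adaptors passed 2-fold, against 2 when set beside other ECs of like depth (median log2 ratio 0.17). Ifih1, a sensor of double-stranded RNA, had 1.95, Myd88, an adaptor of Toll-like receptors, 1.74, Ddx58 (RIG-I) 1.39, Tmem173 (STING) 1.24 and the kinase Tbk1 0.762. Of 8 genes of ISG15 conjugation and feedback (median log2 ratio 0.29) 1 was higher, the ISG15 ligase Herc6, at 61.4, 55.4 and 59.9 CPM in gated ECs and 28.4, 25.7 and 26.8 CPM in other ECs and a ratio of 2.17. The ratio of Herc6 in single libraries was 2.17, 2.16 and 2.24, the last from 5 UMIs with an interval of 0.728 to 5.23. Socs1 and Socs3, inhibitors of cytokine signalling, had 1.72 and 1.15, and Ptpn2 0.701.

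Of 43 antiviral effectors outside the gate 10 were at least 2-fold higher and none lower, and the median log2 ratio was 0.61. The 10 were Oasl1, Ifit3b, Ifit2, Ifi44, Oasl2, Ifi204, Rtp4, Pml, Phf11b and Cmpk2. The abundant members lay closer to the other ECs, with ratios of 1.26 for Ifitm3, which blocks viral entry, 1.26 for Bst2 (tetherin), 1.11 for Ly6e and 0.889 for Ifitm2. Ifitm3 was at 2748, 3893 and 2312 CPM in gated ECs and 2178, 3059 and 2157 CPM in other ECs, so ECs outside the gate carried it too. Oas3 and Ifi44l had 0 UMIs in ECs.

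The GBP and IRG GTPases attack the vacuoles of intracellular pathogens. Of 13 tested 4 were at least 2-fold higher and none lower, the median log2 ratio was 0.79, and their sum stood at 1.86, 1.95 and 1.80 times expectation. Iigp1 led, at 809.8, 785 and 491 CPM in gated ECs and 367, 329 and 211 CPM in other ECs, a ratio of 2.28 (2.18 to 2.39) over all libraries and 2.21, 2.39 and 2.33 in each. Over whole classes of the healthy library Iigp1 was at 546 CPM in ECs, 216 in mural cells, 16.6 in FBs and 6.33 in BCs. Tgtp1 had a ratio of 2.28, Igtp 2.14, Ifi47 2.02, Gbp7 1.73, Irgm1 1.67, Gbp2 1.40 and Gbp4 1.27. Tgtp1 and Tgtp2 are near-identical copies and their separate values are uncertain.

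None of 17 MHC class I genes passed 2-fold (median log2 ratio 0.17). B2m, the invariant chain, was at 3252, 5846 and 4767 CPM in gated ECs and 2942, 5138 and 4258 CPM in other ECs, a ratio of 1.13, and Tap1, a peptide transporter, had 1.39. H2-D1 and H2-K1 had 1.07 and 1.10. None of 4 MHC class II genes passed it (median log2 ratio 0.19), with Cd74, the invariant chain of class II, at 1.35.

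Of 7 chemokines 2 were at least 2-fold higher and 1 lower (median log2 ratio 0.05). Cxcl10, which attracts T cells, was at 119.7, 125 and 35.9 CPM in gated ECs and 44.5, 34.7 and 14.9 CPM in other ECs, a ratio of 3.02 (2.67 to 3.40). Cxcl9, which binds the same receptor, was at 136, 229 and 83.8 CPM in gated ECs and 72.8, 96.9 and 56.5 CPM in other ECs, a ratio of 2.10. Cxcl9 was higher in gated ECs of each library. The ratio of Cxcl10 was 2.70, 3.60 and 2.42, the last from 3 UMIs with an interval of 0.499 to 7.07. Against other ECs of like depth Cxcl10 was at 2.46 over all libraries. A Cxcl10 UMI was present in 14.4%, 9.54% and 5.71% of gated and 6.28%, 3.48% and 1.91% of other ECs. Ccl2, which attracts monocytes, had 0.440 from 17 UMIs, and Cxcl12 and Cxcl1 had 0.873 and 1.28.

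Of 9 adhesion and activation genes Il6 was at least 2-fold higher and Selp (P-selectin) lower. Il6 was at 23.6, 217 and 0 CPM in gated ECs and 23.6, 91.9 and 8.93 CPM in other ECs, so the step lay in the 2-week library. Against other ECs of like depth Il6 was at 1.69, no longer past 2-fold. Icam1, which binds leukocytes, had ratios of 1.04, 1.74 and 1.34 and Vcam1 0.443, 1.09 and 0.968. The summed ratio of the list was 0.889, 1.27 and 1.05.

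General EC genes were level. None of 14 pan-endothelial genes passed 2-fold (median log2 ratio -0.04), with Flt1, a VEGF receptor, at 1.06, the tight junction gene Cldn5 at 0.996 and Eng at 0.918. None of 10 capillary markers passed it (median 0.08). Fabp4, a fatty acid carrier, was at 17429, 24716 and 18888 CPM in gated ECs and 15685, 24524 and 16325 CPM in other ECs, and Rgcc had 1.25. None of 6 activated capillary markers passed it (median 0.07), with Pcdh17 at 1.47 and Apln at 0.708. At least 3 UMIs of the capillary list were held by 637 of 638 gated ECs and by 2745 of all 2800 ECs.

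Markers of other vessels stood lower. Arterial markers had a median log2 ratio of -0.33, with 1 of 10 past 2-fold, the gap junction gene Gja5 at 0.411. In single libraries the arterial median was -0.49, -0.07 and -0.94. The 2-week value lay near the pooled median of all genes (-0.04), and the 12-week value came from 74 UMIs. Venous markers had -0.73, with 2 of 7 past it, Plvap at 0.424 and Bgn at 0.467. Endocardial markers had -0.69, with Cytl1 and Plvap of 7 lower. Cytl1 was at 82.7, 25.6 and 179.7 CPM in gated ECs and 410.3, 88.8 and 774 CPM in other ECs, a ratio of 0.216 (0.182 to 0.254). Nrg1, the endocardial gene that was higher (2.06, and 1.66 against other ECs of like depth), had all 41 of its UMIs in 1 healthy cell.

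Lymphatic markers stood lowest of the lists, with all 5 tested at least 2-fold lower (4 against other ECs of like depth) and a median log2 ratio of -3.15. The pooled values rest mostly on the healthy library. Expected UMIs of the list were 1903, 90.0 and 23.6, and Ccl21a made up 1642 of those in the healthy library. The summed ratio was 0.125, 0.311 and 0.127, the last from 3 UMIs. Mmrn1 had 9 UMIs in gated ECs against 97.9 expected (87.6, 7.61 and 2.73 by library), a ratio of 0.0919 (0.0420 to 0.174). Prox1, the factor that sets lymphatic fate, had 11 against 42.8. Ccl21a, which guides immune cells into lymphatics, had a ratio of 0.113, and 184 of its 191 UMIs came from 1 cell. The remaining lowest genes were Fgl2 (0.0926), Abi3bp (0.171), Gm21541 (0.229, a copy in the Ccl21 family whose value is uncertain), Gkn3 (0.230), Lsr (0.232) and Gfm2 (0.275).

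**Figure D5:**
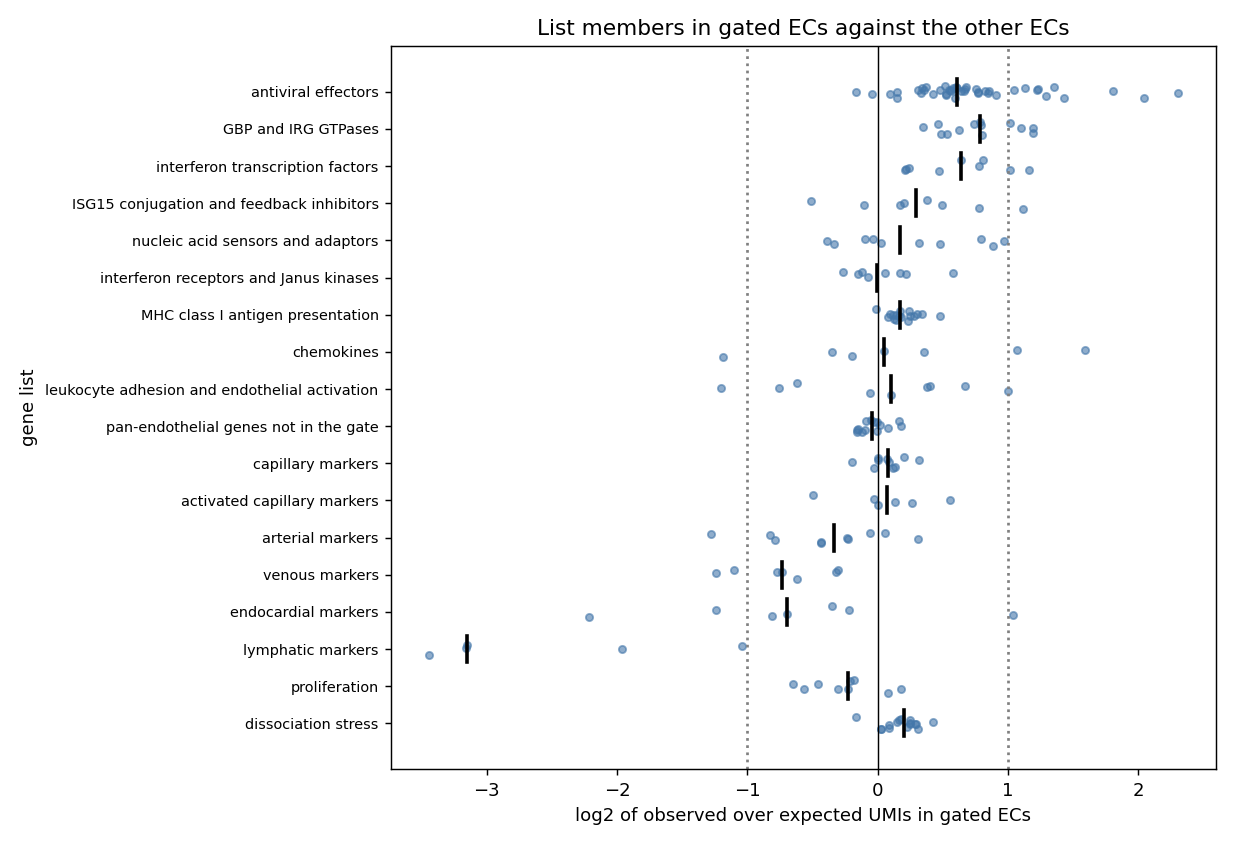
Log2 of observed over expected UMIs in gated ECs (x axis) for each tested member (points) of 18 gene lists (y axis), over all libraries. Black bars are list medians and dotted lines mark 2-fold. Antiviral effectors, GTPases and transcription factors lie mostly right of 0, with medians of 0.61, 0.79 and 0.64, and lymphatic markers lie furthest left at -3.15.

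Counted as cells, 4 of 44 (9.09%, 2.53 to 21.7) ECs with at least 3 UMIs of the lymphatic list without Ccl21a were in the gate. The count was 24 of 171 (14.0%, 9.20 to 20.2) for endocardial, 96 of 384 (25.0%, 20.7 to 29.6) for venous, 208 of 763 (27.3%, 24.1 to 30.6) for arterial, 637 of 2745 (23.2%, 21.6 to 24.8) for capillary and 309 of 880 (35.1%, 32.0 to 38.4) for activated capillary markers. These counts pool libraries that differ in gate share and in their mix of vessel types. At 12 weeks the endocardial share was 3 of 26 (11.5%) and the arterial share 6 of 67 (8.96%), so the pooled order did not hold there. The activated capillary share was 6 of 43 (14.0%) there, against 14.3% of all ECs. The median depth of the lymphatic cells was 2856.5, 1754 and 912 UMIs and that of the endocardial cells 3139.5, 2232 and 2876.5. It was 3546, 2525 and 1812 UMIs for activated capillary, 2931, 2132 and 1925 for arterial and 3432, 2340 and 2592.5 for venous cells. Over all ECs it was 2337, 1633 and 1415.5 UMIs. The counts were not matched for depth, and gated ECs were the deeper cells of each library. One cell can carry markers of several lists.

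Genes of other cell types and of stress were counted in the same way. The median gated EC held 0 UMIs of the FB, BC and mural sets in each library. A mural-set UMI was present in 20.7%, 7.89% and 17.1% of gated and 14.1%, 4.12% and 8.61% of the shallower other ECs. Of identity genes 1 of 7 for FBs and 2 of 8 for BCs were at least 2-fold lower, none of 3 mural genes was past it, and no neural gene was tested. Of 7 cardiomyocyte genes Myh6 was higher (1.77 against other ECs of like depth), and the sum was at 1.41, 1.01 and 1.41 times expectation. All 4 haemoglobin genes among 6 erythroid and platelet genes were higher, and 1 gated EC held 1977 of 1978 haemoglobin UMIs at 12 weeks. In the healthy library 1 gated EC held 189 and another 70 of 271, and at 2 weeks 1 held 575 and another 171 of 817. At least 10 haemoglobin UMIs were held by 2, 3 and 1 gated ECs and by 2, 3 and 0 other ECs. None of 9 proliferation genes passed 2-fold (median log2 ratio -0.23), while 3 were lower against other ECs of like depth. None of 16 dissociation stress genes passed it, and their sum was at 1.04, 1.20 and 1.45 times expectation. Mitochondrial genes made up a median of 2.14%, 1.98% and 1.64% of UMIs in gated and 2.24%, 2.21% and 2.09% in other ECs. The part of these values in the results was not tested.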

How the data were processed

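Per the labels the matrices hold UMI counts per gene and cell barcode. The authors made these counts with Cell Ranger 2.0.0 on mm10, according to the submitters' processing notes, and replicates were not pooled since each phase was 1 library. Of 6941 deposited barcodes 6915 had at least 200 genes, with 12309881, 4472377 and 1723863 UMIs at 0, 2 and 12 weeks. Scrublet (scanpy 1.11.5) called 35, 2 and 5 doublets, of which 1 was an EC and none was gated, and since it called under 0.5% of the 2-week cells none was removed. A barcode that also occurred in another library was carried by 2 gated ECs and 10 ECs in all.

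Counts were analysed with Python 3.11.15, numpy 2.4.6, scipy 1.17.1 and pandas 2.3.3. Expected UMIs were the share of a gene in the other ECs of the library times the UMIs of the gated ECs, with gate UMIs left out of the totals. Intervals at 95% were Clopper-Pearson or Wilson for shares and exact Poisson for counts. Ratios of shares had intervals on the log scale by the Katz formula. After thinning that formula took expected counts, which need not be whole numbers. Intervals of Rsad2 per Isg15 UMI were Clopper-Pearson intervals of a share, turned into odds. With 1 library per phase there was no test, and called means past 2-fold. The calculation of observed over expected UMIs was tested on simulated counts with known changes. The gated cells were taken as given there, so the choice by gate UMIs was not part of that test.

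Named genes were the gate genes, the 20 highest (at least 20 UMIs in gated ECs, ratio over 1 in each library with at least 1 expected UMI), the 10 lowest (at least 20 expected, ratio under 1 likewise), up to 4 most abundant members and the extremes of each list, and every interferon ligand with a UMI. The highest and lowest took in no haemoglobin, ribosomal or mitochondrial gene. List members past 2-fold were also named after their values were seen. The cells and gene lists were chosen with earlier results of these data known. Promoter letters came from RefSeq (GRCm38.p6), in which 27 of 35 named genes had an entry. One item is not reported here.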

Additional observations from a re-analysis of the deposited data

Results flagged for a closer look

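The summed ratio of the leukocyte adhesion and endothelial activation list in gated against other ECs lay on opposite sides of 1 in the libraries of 2 phases, at 1.27 in adaptive hypertrophy and 0.889 in the healthy heart. The summed ratio of the proliferation list did the same, at 1.43 in heart failure and 0.913 in the healthy heart. Each value comes from 1 library, and neither difference was tested.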

How the results depend on the processing

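No paired analysis was possible because each phase was a single library. Alternatives with 10 or more gate UMIs, without Rsad2, within ranges or strata of depth, on a random part of the UMIs, without cells that held Rsad2 alone, or with a library left out were chosen after seeing the data. Shares in the gate at 0, 2 and 12 weeks were 40.1%, 31.3% and 25.0% with at least 2 gate UMIs (2-week ratio to healthy 0.780), 16.5%, 9.73% and 6.97% with at least 5, and 5.02%, 2.27% and 2.05% with at least 10 (2-week ratio 0.452). Without Isg15 in the gate they were 14.5%, 9.15% and 9.84% (12-week ratio 0.679), and without Rsad2 22.1%, 13.6% and 7.38% (12-week ratio 0.334). With at least 5 EC UMIs the 2-week share was 22.3%. Thinned shares were 3.15%, 2.90% and 3.34% at 500 UMIs (12-week ratio 1.06), 15.3%, 14.1% and 14.5% at 1500 UMIs, and 18.0%, 18.6% and 14.8% with at least 2 gate UMIs (2-week ratio 1.03). The healthy mural share was 23.3% without cells over 10% mitochondrial UMIs. Genes at least 2-fold lower numbered 187 by the mean over cells, 195 with at least 5 gate UMIs and 153 within strata of depth. Without the healthy library 82 were higher and 254 lower, and without adaptive hypertrophy 72 and 210. List genes lower numbered 6 with at least 200 UMIs and 26 with no filter, and heart failure on its own gave 44 higher and 39 lower. ECs with 10 or more gate UMIs over those with 0 had 1.59, 1.59 and 1.37 times the antiviral effectors in the single libraries, and 3.41 times the GTPases in heart failure. Summed ratios on the other side of 1 included MHC class II (heart failure 0.794), adhesion (strata of depth 0.980, healthy 0.889, without adaptive hypertrophy 0.899), pan-endothelial (1.02, 1.01 and 1.00 under the same settings), capillary (adaptive hypertrophy 0.998), proliferation (heart failure 1.43), mural identity (adaptive hypertrophy 0.720, without the healthy library 0.786), receptors and Janus kinases (heart failure 0.905, at least 5 gate UMIs 0.963) and chemokines (healthy 0.984). The cause was not tested. Heart failure rests on 35 gated ECs.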
